A study of Drosophila melanogaster with 16 samples.

Results

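The tetraspanin genes of the fruit fly (Drosophila melanogaster) were followed across 7 types of neuron of the pupal visual system. They were taken by symbol, as the genes whose symbol starts with Tsp and a digit, with lbm (late bloomer) added. This gave 35 of the 15682 genes in the table of RPKM values, that is, reads scaled to gene length and to library depth. In the current annotation the 35 genes encode proteins of 208 residues (lbm) to 362 residues (Tsp68C). A total of 20 of the genes lie on chromosome arm 2R, 5 on 2L, 4 on 3L, 3 on 3R and 3 on X.

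Tetraspanins are small proteins that cross the membrane repeatedly and gather other membrane proteins, such as integrins and Adam proteases, into organised patches. They sit at the cell surface and in endosomes, lysosomes and secreted vesicles. In the fly nervous system the tetraspanin lbm is known from motor axons, where its loss delays synapse formation, and Tsp42Ej, also named sunglasses, is known from the lysosomes of photoreceptors, where it lowers the level of rhodopsin.

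RNA was sequenced from cells isolated by flow cytometry out of dissociated wild-type tissue that the labels call optical lobe. R7 and R8 are the inner photoreceptors of the compound eye, with 2 libraries each. L1 to L5 are the neurons of the lamina, the layer beneath the eye, with 4 libraries of L3 and 2 of each other type. Whether the libraries of a type stem from different animals is not stated, so p-values reflect only the spread among these libraries, which may be technical in part. The stated ages conflict. By their age field L1 cells were 24 h old (counted from pupal formation), L2 35 h, L3 40 h, L4 45 h, L5 53 h, R7 65 h and R8 96 h, while the dissection is described at 40 h throughout. The headings of the lamina columns in the deposited values also carry 40, and those of R7 and R8 carry no age. Were the age field right, age and type could not be told apart. These are bulk libraries, in which fewer cells of a type and less RNA per cell cannot be told apart.

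The recovered depth was 47.1 to 153.25 M reads, read from the steps between low values. A gene of 1 kb with 3 reads would then stand at 0.0196 to 0.0637 RPKM, for counting error only. The 7 photoreceptor markers summed to 2576 to 3067 RPKM in the photoreceptor libraries and to 6.85 to 143 RPKM in the lamina libraries. The 11 lamina neuron markers summed to 262.8 to 1336 RPKM in the lamina libraries and to 7.42 to 12.4 RPKM in the photoreceptor libraries. The L3 libraries stood in pairs: in replicates 1 and 2 the mitochondrial genes made up 4.17 and 3.96% of reads, against 14.6 and 9.60% in replicates 3 and 4. All 7 photoreceptor markers had their highest lamina type mean in L3, and none was at 0 in any library. For gl the highest single lamina library was L4 replicate 1, at 9.67 RPKM against at most 6.85 in L3. Of 6 glial markers, summing to 5.85 to 33.1 RPKM in lamina and 20.9 to 28.6 RPKM in photoreceptor libraries, 1 was called higher in photoreceptors (nrv2, at 17 to 21.2 against 0.624 to 2.77 RPKM) and 1 lower. The 5 blood cell markers summed to 13.8 to 278 RPKM in lamina and 0.311 to 0.748 RPKM in photoreceptor libraries, and nearly all of this was Pxn. The other 4 (Hml, He, NimC1 and srp) summed to at most 1.09 RPKM in any lamina library, and 3 of the 5 were at 0 in some library. The 5 cone and pigment cell markers summed to 1.25 to 8.23 RPKM in lamina and 1.70 to 8.40 RPKM in photoreceptor libraries, and the 4 fat body markers to 0.132 to 15.2 and 0.297 to 0.522 RPKM.

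The family was carried by different genes in photoreceptors and in lamina neurons, at totals that overlapped. Summed over the 35 genes, the level was 885 to 1789 RPKM in the 12 lamina libraries and 1132 to 1251 RPKM in the 4 photoreceptor libraries. Tsp42Ee held 29.3 to 67.2% of that sum in lamina libraries and 0.645 to 3.62% in photoreceptor libraries. Tsp47F held 47.8 to 55.0% in photoreceptor libraries and 0.0334 to 1.80% in lamina libraries. Tsp42Ee was the highest member in 11 of the 12 lamina libraries, and in L5 replicate 2 the highest was Tsp42Ej, at 29.5% of the sum against 29.3%. In all 4 photoreceptor libraries the order began with Tsp47F, Tsp42El and Tsp42Ej.

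**Figure D1:**
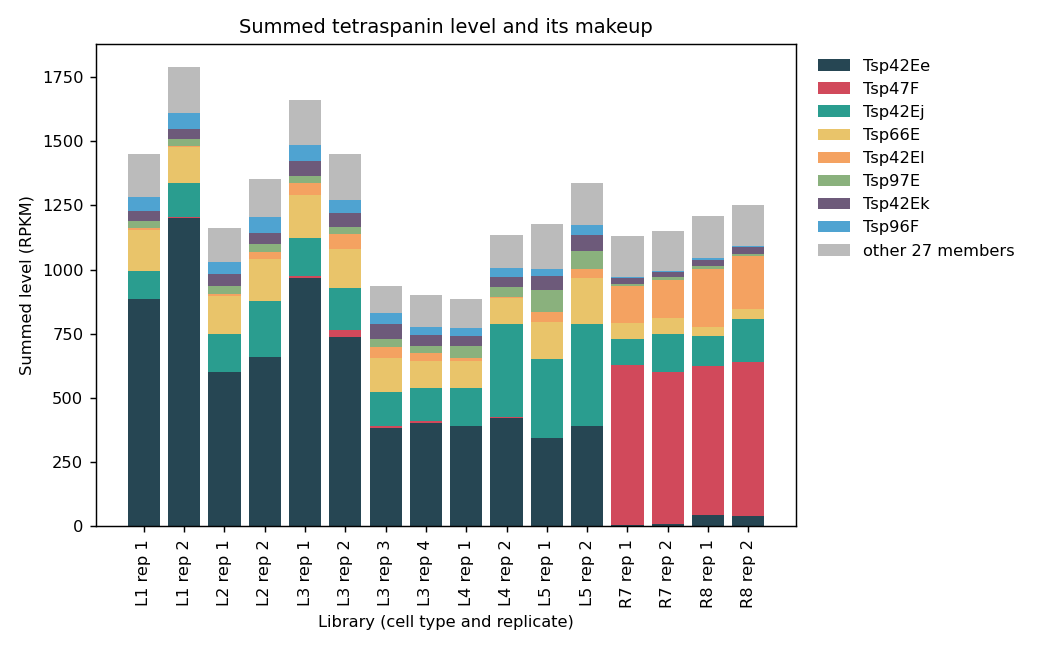
Summed level of the 35 tetraspanin genes in each of the 16 libraries (RPKM, vertical axis), split into the 8 members with the highest type means and the other 27. Tsp42Ee (dark) fills 29.3 to 67.2% of each lamina bar, and Tsp47F (red) fills 47.8 to 55.0% of each photoreceptor bar.

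A total of 27 members reached 1 RPKM in at least 2 libraries and were tested with limma on log2(RPKM + 1), together with all other genes that did so (9346 in all). P-values were adjusted over all genes tested and called under 0.05. Log2 differences are on that scale and understate the change of low genes. The filter admits a member that is high in a single type, so counts over the 27 are not counts over the family. Tsp42Ec and Tsp42Eq reached 1 RPKM in photoreceptor libraries alone, and Tsp42Ed, Tsp42Eg, Tsp42Eo and Tsp42Ep in lamina libraries alone. Tsp29Fa and Tsp29Fb reached it in the R8 libraries and in L5 replicate 1 alone, and would not have passed without R8. Calls of these members between the classes, and of Tsp29Fa and Tsp29Fb between R7 and R8, are therefore not independent of the filter. Of the 27, 8 were higher in photoreceptors (mean of R7 and R8 against mean of L1 to L5) and 14 were lower. Over all genes tested 31.7% were called higher and 30.2% lower, 61.9% in all. The median log2 difference was -0.44 over the 27 members and -0.02 over all genes tested. Leaving out each of the 16 libraries in turn, 18 of the 22 calls held every time, and the other 4 were Tsp26A, Tsp42Eg, Tsp42Ej and Tsp74F.

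**Figure D2:**
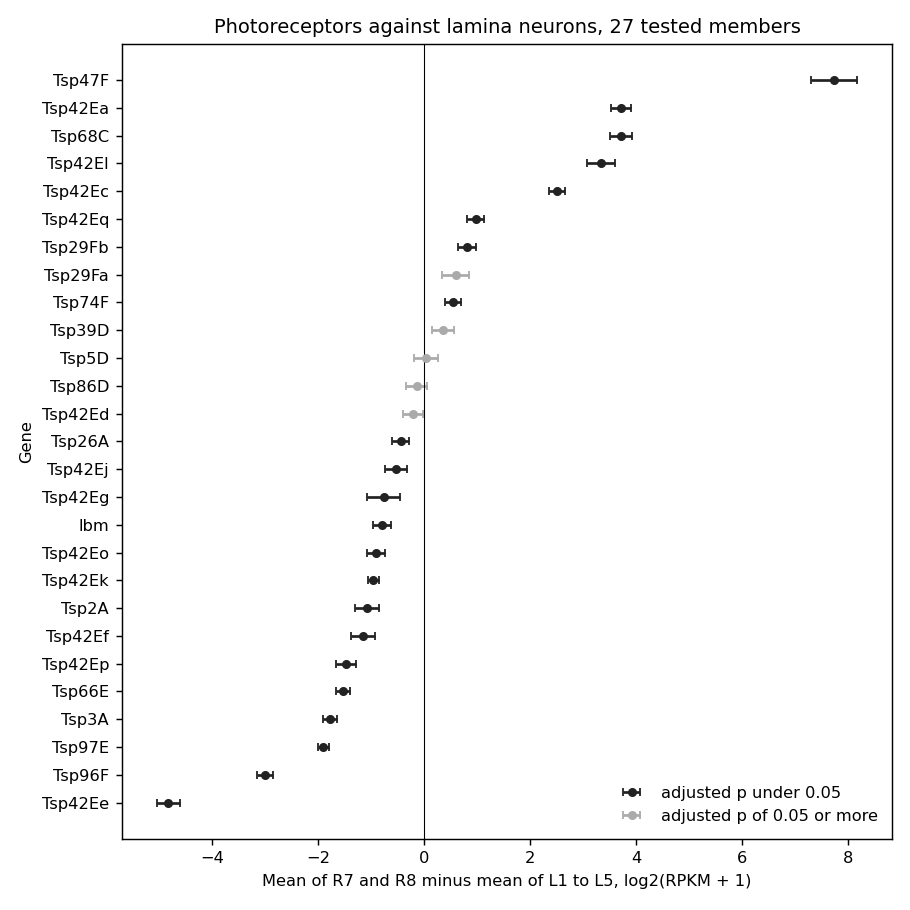
Difference between photoreceptors and lamina neurons for the 27 tested members: mean of R7 and R8 minus mean of L1 to L5 on the log2(RPKM + 1) scale, with bars of 1 standard error from limma. Tsp47F lies farthest to the right at 7.73 and Tsp42Ee farthest to the left at -4.83, and black points have an adjusted p under 0.05.

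Tsp47F (FBgn0033629) was the leading tetraspanin of both photoreceptor types. It stood at 622 and 594 RPKM in R7, 579 and 597 in R8, 4.24, 26.1, 5.03 and 11.2 in L3, 0.718 and 4.15 in L1, 0.426 and 0.451 in L2, 0.335 and 4.28 in L4, and 0.498 and 0.562 in L5. All 4 photoreceptor libraries lay far above all lamina libraries. The difference was 7.73 ± 0.44 (log2, SE; adjusted p = 7.36e-09), and the mean over R7 and R8 was 172 times the mean over the lamina types. Between R7 and R8 the difference was 0.05 ± 0.75 (adjusted p = 1), an error that draws on the spread of the low lamina values as well.

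Within the lamina, Tsp47F was higher in L3 than in the mean of the other 4 types (2.31 ± 0.46, adjusted p = 0.00258, and 2.54 with adjusted p = 0.0108 without L3 replicates 3 and 4). Its range in L3 overlapped that in L4, whose second library stood at 4.28 RPKM, and began just above the second L1 library, at 4.15 RPKM. As a share of the photoreceptor mean, Tsp47F stood at 0.708 to 4.36% in the L3 libraries. The photoreceptor markers, summed, stood at 1.89 to 5.03% in the same libraries and at 0.240 to 0.874% in the other lamina libraries. The part of photoreceptor RNA in the L3 value was not tested. Over the 7 type means of log2(RPKM + 1), the genes most like Tsp47F among all genes tested were CG5026 (Pearson r = 0.998), CG32082 (0.995), inaD (0.994), ninaG (0.994) and oc (0.994). This is a description over 7 points, of which R7 and R8 hold the high values.

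Tsp42Ea, Tsp68C and Tsp42El followed Tsp47F among the members higher in photoreceptors. Tsp42Ea (FBgn0029508) stood at 31.9 and 34.6 RPKM in R7, 42.6 and 30.2 in R8, 0.376 and 0.464 in L1, 0.875 and 1.52 in L2, 2.64, 4.74, 2.53 and 2.34 in L3, 3.93 and 1.80 in L4, and 2.08 and 2.39 in L5. Tsp68C (FBgn0043550) stood at 23.8 and 25.3 RPKM in R7, 21.8 and 21.6 in R8, 0.136 and 0.192 in L1, 0.134 and 0.156 in L2, 0.537, 2.97, 1.31 and 1.52 in L3, 2.79 and 1.25 in L4, and 1.67 and 0.828 in L5. For both genes the classes did not overlap, and the log2 difference was 3.71 (SE 0.18 and 0.21, adjusted p = 1.89e-09 and 8.47e-09).

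Tsp42El (FBgn0033134) was high in photoreceptors and reached a middle level in some lamina types. It stood at 142 and 149 RPKM in R7, 227 and 207 in R8, 45.3, 58.4, 40.7 and 32.4 in L3, 39.0 and 34.2 in L5, 8.05 and 29.2 in L2, 11.6 and 6.20 in L4, and 5.45 and 5.90 in L1. The photoreceptor libraries lay above all lamina libraries, by 3.33 ± 0.26 (log2, adjusted p = 1.59e-07). In L3 it stood at 17.9 to 32.2% of the photoreceptor mean, above the 1.89 to 5.03% of the photoreceptor markers in the same libraries.

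The other members higher in photoreceptors were low throughout, and Tsp42Ec and Tsp42Eq passed the filter through photoreceptor libraries alone. Tsp29Fb passed it through its R8 libraries, with L5 replicate 1 the only lamina library to reach 1 RPKM. Tsp42Ec stood at 4.94 to 7.22 RPKM in photoreceptors and 0 to 0.834 in lamina neurons (2.51 ± 0.15, adjusted p = 1.27e-08). Tsp42Eq stood at 0.925 to 2.18 RPKM against 0.0155 to 0.712 (0.97 ± 0.16, adjusted p = 0.000189), and Tsp29Fb at 0.817 to 3.15 RPKM against 0.139 to 1.43, which overlapped (0.81 ± 0.17, adjusted p = 0.000979). Tsp74F was called higher by 0.54 ± 0.15 (adjusted p = 0.00626), a call that ended without R8 replicate 2 (difference 0.42). Its classes overlapped. The R7 libraries, at 1.38 and 1.51 RPKM, lay within the lamina range of 0.523 to 2.83, and only those of R8, at 3.16 and 4.79, lay above it.

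Tsp42Ee (FBgn0029506) was the leading tetraspanin of the lamina and the member lowest in photoreceptors relative to it. It stood at 886 and 1202 RPKM in L1, 599.5 and 659.7 in L2, 969, 739, 385 and 401 in L3, 389.6 and 423 in L4, and 345 and 392 in L5. In R7 it stood at 7.29 and 8.67 RPKM, and in R8 at 43.7 and 41.9. The lowest lamina library was thus several times above the highest photoreceptor library, with a log2 difference of -4.83 ± 0.22 (adjusted p = 8.12e-10). L3 replicates 1 and 2 lay above L3 replicates 3 and 4, and without the latter pair the difference was -4.94.

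Tsp96F and Tsp97E were also low in photoreceptors. Tsp96F (FBgn0027865) stood at 55.8 and 59.7 RPKM in L1, 47.0 and 59.0 in L2, 58.9, 48.9, 40.4 and 29.6 in L3, 32.9 and 33.7 in L4, 28.4 and 38.6 in L5, 3.36 and 3.52 in R7, and 5.79 and 5.79 in R8. The log2 difference was -3.0 ± 0.15 (adjusted p = 3.06e-09). Tsp97E (FBgn0039465) stood at 30.1 and 27.3 RPKM in L1, 30.4 and 27.9 in L2, 27.2, 25.8, 33.3 and 27.7 in L3, 44.3 and 40.1 in L4, 85.2 and 70.7 in L5, 9.73 and 9.85 in R7, and 10.0 and 8.20 in R8. All lamina libraries of both genes lay above all photoreceptor libraries, and for Tsp97E the difference was -1.90 ± 0.10 (adjusted p = 4.8e-09).

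Tsp66E and Tsp42Ek were expressed in every library, at lower levels in photoreceptors. Tsp66E (FBgn0035936) stood at 159 and 141 RPKM in L1, 151 and 164 in L2, 169.6, 154, 135 and 102 in L3, 105 and 98.3 in L4, 144 and 181 in L5, 62.1 and 63.3 in R7, and 34.3 and 38.4 in R8. Tsp42Ek (FBgn0033133) stood at 37.4 and 38.2 RPKM in L1, 44.9 and 46.1 in L2, 59.5, 55.2, 58.7 and 44.1 in L3, 40.3 and 38.4 in L4, 55.0 and 59.7 in L5, 23.3 and 19.6 in R7, and 25.1 and 25.3 in R8. Neither gene overlapped between the classes, and the log2 differences were -1.53 ± 0.13 (adjusted p = 3.76e-07) and -0.96 ± 0.10 (adjusted p = 2.67e-06).

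**Figure D3:**
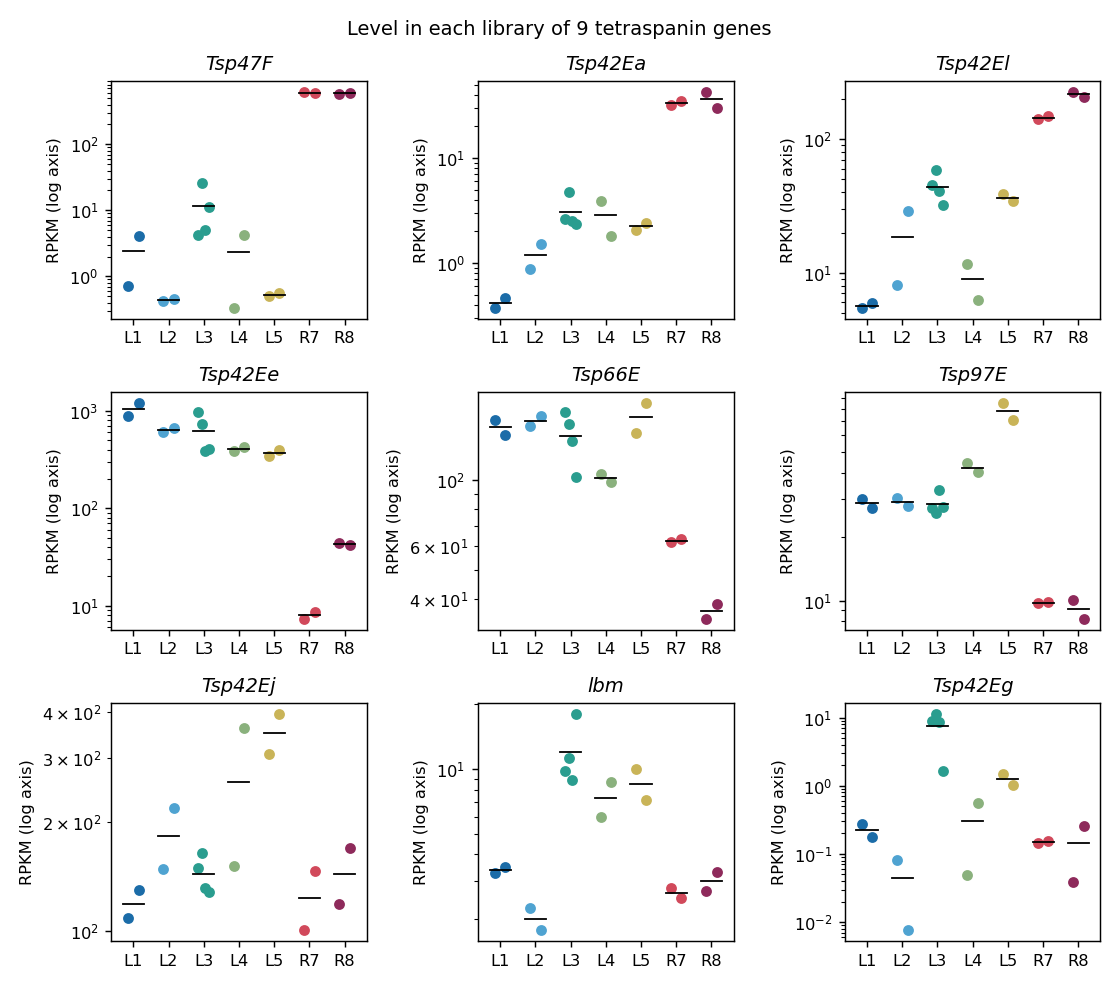
Level in each library (points) and type mean (bars) of 9 tetraspanin genes, RPKM on a log axis with its own range in each panel. The upper row holds Tsp47F, Tsp42Ea and Tsp42El, whose photoreceptor libraries lie above all lamina libraries, and the middle row holds Tsp42Ee, Tsp66E and Tsp97E, whose photoreceptor libraries lie below them.

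Tsp42Ej, the lysosomal tetraspanin that protects photoreceptors from light-driven degeneration, was abundant in every type. Tsp42Ej (FBgn0033132) stood at 101 and 146 RPKM in R7, 118 and 169 in R8, 108 and 129 in L1, 148 and 217 in L2, 149, 163, 132 and 128 in L3, 151 and 362 in L4, and 307 and 395 in L5. Photoreceptor and lamina libraries overlapped, and L5 and the second L4 library were high. The log2 difference was -0.53 ± 0.21 (adjusted p = 0.0424). The call ended without L1 replicate 1 or 2, L2 replicate 2, L3 replicate 1 or 2, L5 replicate 2, R7 replicate 1 or R8 replicate 1, each left out alone (adjusted p = 0.0510 to 0.196). Its exons overlap those of Tsp42Ek on the same strand in the current annotation, over 9.59% of its exonic bases and 8.89% of those of Tsp42Ek, so some reads of either gene are uncertain.

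The 3 tetraspanins that help the Adam protease kuz (kuzbanian, a relative of mammalian ADAM10) reach the cell surface and act on Notch were Tsp3A, Tsp26A and Tsp86D. Tsp3A (FBgn0040334) stood at 39.1 and 37.5 RPKM in L1, 30.1 and 38.7 in L2, 36.3, 26.1, 21 and 25.6 in L3, 29.2 and 24.6 in L4, 20.5 and 22.4 in L5, 10.9 and 9.46 in R7, and 6.03 and 5.71 in R8. Its classes did not overlap, with a log2 difference of -1.77 ± 0.13 (adjusted p = 1.11e-07).

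Tsp86D (FBgn0037848) stood at 27.3 and 24.8 RPKM in R7, 20.9 and 18.3 in R8, 38.7 and 42.4 in L1, 30.6 and 35.0 in L2, 26.8, 23.5, 13.2 and 14.1 in L3, 11.8 and 22.5 in L4, and 25.4 and 23.0 in L5. The photoreceptor libraries lay within the range of the lamina libraries, and its difference of -0.14 ± 0.19 missed the threshold (adjusted p = 0.530). Tsp26A (FBgn0031760) was low, at 0.863 and 0.582 RPKM in R7, 1.08 and 1.05 in R8, 1.85 and 2.08 in L1, 1.42 and 1.64 in L2, 1.17, 1.25, 1.10 and 1.37 in L3, 2.80 and 1.26 in L4, and 1.96 and 0.713 in L5. The classes overlapped, and its difference of -0.44 ± 0.16 (adjusted p = 0.0272) was no longer called without R7 replicate 2 (0.117), R8 replicate 1 (0.0731) or R8 replicate 2 (0.0810). The 3 differences were not tested against each other.

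The synapse gene lbm (FBgn0016032) was low in photoreceptors and in L1 and L2. It stood at 9.74, 11.3, 8.88 and 18 RPKM in L3, 9.95 and 7.14 in L5, 5.98 and 8.73 in L4, 3.27 and 3.49 in L1, 2.24 and 1.78 in L2, 2.78 and 2.51 in R7, and 2.71 and 3.31 in R8. The photoreceptor libraries fell among those of L1 and L2 and below those of L3, L4 and L5. Over all types the difference was -0.80 ± 0.17 (adjusted p = 0.00119), and with the libraries pooled into 2 classes it was no longer called.

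The remaining members called lower in photoreceptors were Tsp2A, Tsp42Ef, Tsp42Eg, Tsp42Eo and Tsp42Ep. For Tsp42Ef the classes overlapped, at 7.26 to 14.8 RPKM in photoreceptors and 10.2 to 52.6 in the lamina libraries (-1.15 ± 0.23, adjusted p = 0.000757). Its R8 libraries (14.8 and 14.2 RPKM) lay above its L4 libraries (10.9 and 10.2 RPKM). Tsp2A, which in the fly midgut builds smooth septate junctions together with mesh and Ssk, stood at 4.63 to 5.15 RPKM in photoreceptors against 5.62 to 24.6 in the lamina libraries (-1.08 ± 0.22, adjusted p = 0.00103). Tsp42Ep stood at 0.249 and 0.213 RPKM in R7 and 0.522 and 0.456 in R8, against 1.38 to 7.12 (-1.47 ± 0.19, adjusted p = 2.45e-05). Tsp42Eo was lower by 0.91 on the log2 scale (-0.91 ± 0.17, adjusted p = 0.000422), but all of its exonic bases lie within exons of Tsp42Ep on the opposite strand in the current annotation, and the strand setting of the counting is not given in the sources used here. Reads of Tsp42Eo and of the 30.7% of Tsp42Ep that it covers are therefore uncertain. Tsp42Eg stood at 0.143 and 0.157 RPKM in R7, 0.0384 and 0.255 in R8, and 0.00760 to 11.3 in the lamina libraries, which overlapped. Its lamina type means were 0.227 RPKM in L1, 0.0441 in L2 and 0.306 in L4, against 7.64 in L3 and 1.26 in L5. It was called at -0.76 ± 0.31 (adjusted p = 0.0488). That call ended without any of 13 libraries, the exceptions being L3 replicate 2, L3 replicate 4 and L4 replicate 1 (adjusted p = 0.0568 to 0.143).

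Of the 5 tested members not called between the classes, Tsp39D (FBgn0032943) was the most abundant. It stood at 37.1 and 35.8 RPKM in R7, 33.1 and 31.0 in R8, 37.5 and 38.0 in L1, 35.2 and 40.0 in L2, 27.4, 24.6, 16.6 and 9.30 in L3, 19.6 and 17.2 in L4, and 26.5 and 27.1 in L5. The classes overlapped (0.36 ± 0.21, adjusted p = 0.143). It was called without L3 replicate 4 (adjusted p = 0.0443) and without L3 replicates 3 and 4 together (adjusted p = 0.00938). Tsp29Fa missed the threshold at 0.59 ± 0.26 (adjusted p = 0.0603) and was called without L5 replicate 1 (0.00170), L5 replicate 2 (0.0449) or R8 replicate 1 (0.0340). It was also called after quantile normalization (adjusted p = 0.0281) and with a pseudocount of 0.1 (adjusted p = 0.0280). Tsp5D (0.03, adjusted p = 0.919) and Tsp42Ed (-0.20, adjusted p = 0.361) also missed it, as did Tsp86D above.

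**Figure D4:**
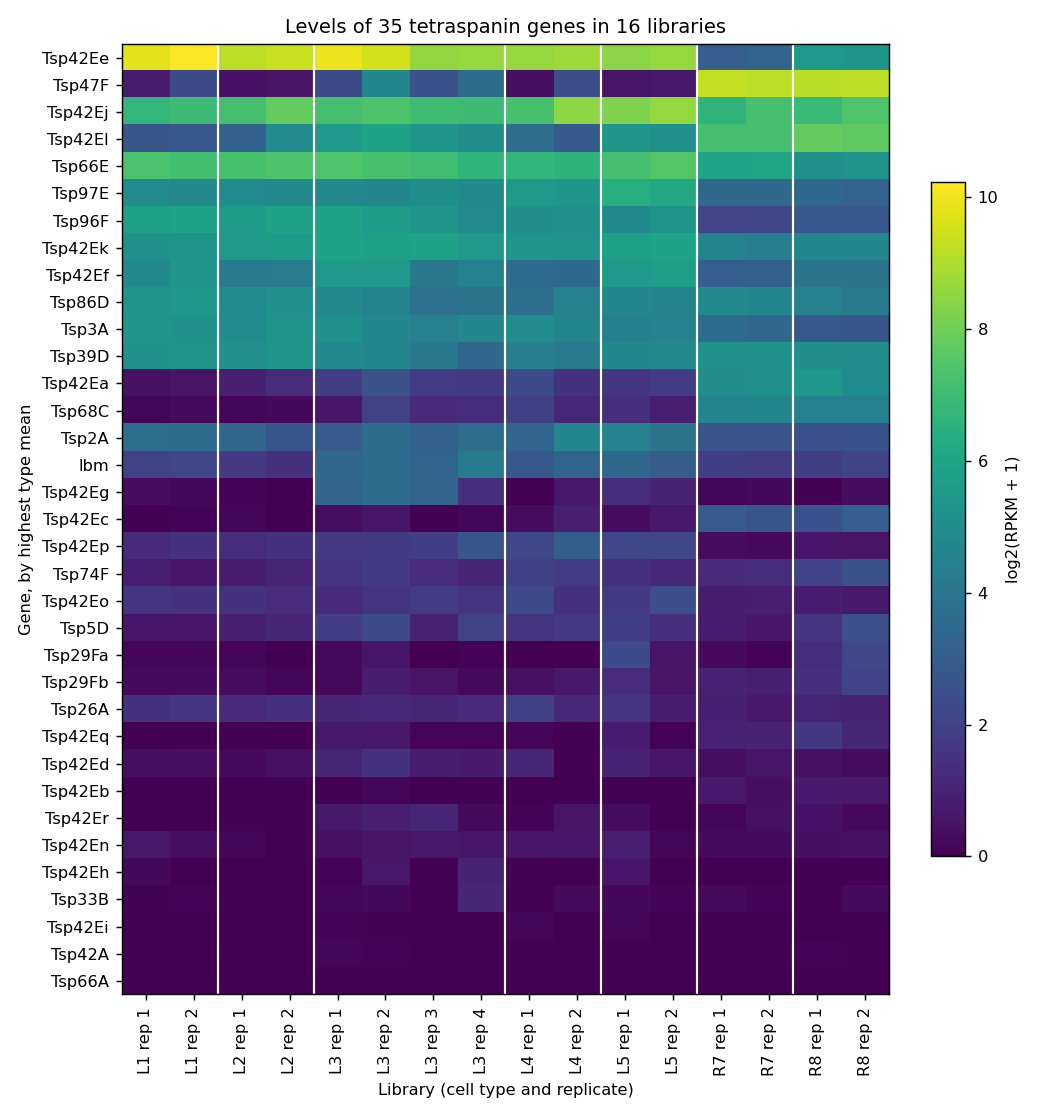
Level of all 35 tetraspanin genes in the 16 libraries as log2(RPKM + 1) (colour), with genes ordered by their highest type mean and white lines between cell types. The 2 top rows, Tsp42Ee and Tsp47F, are bright in complementary sets of columns, and Tsp66A at the foot is listed at 0 in all 16 libraries.

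R7 and R8 differed in 4 of the 27 tested members. Of these, Tsp66E was called higher in R7 (3.2% of all genes tested were) and Tsp29Fa, Tsp42Ee and Tsp74F were called lower (7.14% of all genes tested were). Tsp42Ee, at 7.29 and 8.67 RPKM in R7 against 43.7 and 41.9 in R8, differed by -2.29 ± 0.37 (adjusted p = 0.00116). That call held without each single library, with adjusted p up to 0.0194. Without L3 replicates 3 and 4 together 8 members were called, against 15.6% of all genes tested.

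The other calls between R7 and R8 depended on single libraries. Tsp66E, at 62.1 and 63.3 RPKM against 34.3 and 38.4, differed by 0.77 ± 0.22 (adjusted p = 0.0428), and the call ended without any of the R7, R8, L1 or L2 libraries (adjusted p = 0.0611 to 0.263). Tsp74F (FBgn0036769) stood at 1.38 and 1.51 RPKM in R7, 3.16 and 4.79 in R8, 0.822 and 0.523 in L1, 0.739 and 1.08 in L2, 1.88, 2.35, 1.47 and 1.07 in L3, 2.83 and 2.57 in L4, and 1.78 and 1.18 in L5. R7 and R8 did not overlap (-1.01 ± 0.25, adjusted p = 0.0209), and the call ended without R7 replicate 1 (0.15), R7 replicate 2 (0.113) or R8 replicate 2 (0.257). Tsp29Fa (FBgn0032074) stood at 0.227 and 0.0849 RPKM in R7 and 1.52 and 3.57 in R8 (-1.56 ± 0.44, adjusted p = 0.0389). That call ended without R7 replicate 1, R7 replicate 2, R8 replicate 2, L3 replicate 1 or any L1 or L2 library (adjusted p = 0.0533 to 0.367). Over 53.6% of its exonic bases Tsp29Fa overlaps the antisense RNA CR46071 in the current annotation, so its reads are uncertain. The 5 cone and pigment cell markers, summed, stood at 1.70 and 2.20 RPKM in R7 and 6.64 and 8.40 in R8. Among them Crys, a lens protein gene, stood at 0.0767 and 0.226 RPKM in R7 and 2.57 and 2.90 in R8. The part of these cells in the Tsp29Fa difference was not tested.

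When R7 and R8 were fitted without the lamina libraries, 11 of 23 members tested were called, against 36.7% of all genes tested. Besides these 4 they were Tsp3A (0.70, adjusted p = 0.00689) and Tsp86D (0.39, adjusted p = 0.0416), higher in R7, and Tsp42Ef (-0.84, adjusted p = 0.00248), Tsp42El (-0.57, adjusted p = 0.00677), Tsp96F (-0.61, adjusted p = 0.00866), Tsp5D (-1.31, adjusted p = 0.0207) and Tsp29Fb (-0.81, adjusted p = 0.0391), lower. In the fit of all types Tsp5D was called without L3 replicate 2, L3 replicate 3 or R8 replicate 1 (adjusted p = 0.0106 to 0.0355), and Tsp3A without L3 replicate 1 or 3 (0.0313 and 0.0384) and after quantile normalization (0.0288). In the fit without the lamina libraries each type is represented by 2 libraries and the spread of 4 libraries sets the error. Tsp42Ef stood at 7.26 and 8.00 RPKM in R7 and 14.8 and 14.2 in R8, and the R7 and R8 libraries of Tsp42El and Tsp3A given above did not overlap either.

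The lamina types differed from each other in 15 of the 27 tested members, by limma's F-test over L1 to L5, against 44.6% of all genes tested. Over all 7 types 25 of the 27 differed, against 70.9% of all genes tested, and the exceptions were Tsp26A and Tsp42Ed. Without L3 replicates 3 and 4 together, more members and more of all genes were called for each type against the other 4. The counts of members were then 16 in L1 (32.1% of all genes), 6 in L2 (31%), 12 in L3 (29.5%), 11 in L4 (37%) and 10 in L5 (28.3%). Between L1 and L2 no member was called (1 at an unadjusted p under 0.05), and 8.36% of all genes tested were.

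Tsp42Eg, Tsp42El, lbm and Tsp47F were higher in L3 than in the mean of the other 4 lamina types. Of these, only Tsp42Eg also differed between L3 and the next lamina type in order. Of the 27 members 5 were higher in L3 than in the mean of the other 4 types (12.5% of all genes tested) and 2 were lower (10% of all genes tested). Tsp42Eg (FBgn0033128) stood at 9.02, 11.3, 8.54 and 1.66 RPKM in L3, 1.51 and 1.02 in L5, 0.274 and 0.180 in L1, 0.0807 and 0.00760 in L2, and 0.0497 and 0.562 in L4. All L3 libraries lay above all others, L3 replicate 4 by little (2.43 ± 0.33, adjusted p = 0.00012). Tsp42El and lbm were higher in L3 by 1.65 ± 0.27 (adjusted p = 0.000621) and 1.15 ± 0.18 (adjusted p = 0.000387). Against the next lamina type in order, L3 exceeded L5 in Tsp42Eg by 1.74 (adjusted p = 0.0207, limma). The difference missed the threshold for Tsp42El (0.24 over L5, adjusted p = 0.741) and lbm (0.41 over L5, adjusted p = 0.321). For Tsp47F it missed it as well (1.77 over L1, adjusted p = 0.0646). The L3 libraries of Tsp42El and lbm overlapped those of L5.

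The calls for Tsp42Eg, Tsp42El, lbm, Tsp47F and, downward, Tsp97E (-0.51 ± 0.11, adjusted p = 0.00406) held without each single library. Without L3 replicates 3 and 4 together these 5 were also called, with differences of 3.0, 1.90, 1.02, 2.54 and -0.60. Tsp42Ea was higher in L3 by 0.68 ± 0.19 (adjusted p = 0.0210), a call that ended without L3 replicate 2 (0.0744). Tsp39D stood at 27.4, 24.6, 16.6 and 9.30 RPKM in L3 and was lower there by 0.65 on the log2 scale (-0.65, adjusted p = 0.0473). That call ended without any single library but L3 replicate 1 or 2 (adjusted p = 0.0563 to 0.0938), and without L3 replicates 3 and 4 together the difference was -0.15 (adjusted p = 0.289).

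L5 had the highest levels of Tsp97E. A total of 5 members were higher in L5 (8.58% of all genes tested) and 0 were lower by limma (8.89% of all genes tested), with 3 of them lower at an unadjusted p under 0.05. Tsp97E, at 85.2 and 70.7 RPKM in L5, was higher by 1.27 ± 0.14 (adjusted p = 1.9e-05), and this was the call that held without each single library. In the order of its levels L5 exceeded L4 (adjusted p = 0.00463), L4 exceeded L2 (adjusted p = 0.0444), L2, L1 and L3 did not differ beyond their spread, and L3 exceeded R7 (adjusted p = 5.31e-06).

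The other 4 L5 calls depended on the L5 libraries, that of Tsp29Fa on L5 replicate 1 and the rest on both. Tsp42El was higher by 1.35 ± 0.34 (adjusted p = 0.0158; 0.172 without L5 replicate 1 and 0.0848 without L5 replicate 2), and Tsp42Ej by 1.09 ± 0.28 (adjusted p = 0.0172; 0.0764 and 0.181). Tsp42Ef (FBgn0033127) stood at 43.9 and 52.6 RPKM in L5, 28.7 and 39.4 in L1, 45.2, 44.2, 16 and 21.5 in L3, 17.4 and 18.9 in L2, and 10.9 and 10.2 in L4. Its L5 libraries overlapped those of L3, with a difference of 1.17 ± 0.31 (adjusted p = 0.0192; 0.106 and 0.167). Tsp29Fa stood at 4.12 and 0.510 RPKM in L5, 0.126 and 0.0915 in L1, 0.143 and 0.0165 in L2, 0.192, 0.478, 0 and 0.0716 in L3, and 0.0180 and 0 in L4. Its first L5 library stood far above the rest (1.35 ± 0.34, adjusted p = 0.0153), and it was not called without L5 replicate 1 (0.455). In L5 replicates 1 and 2 the cone and pigment cell markers summed to 8.00 and 2.05 RPKM, with Crys at 6.02 and 0.824, and their part in the value was not tested.

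In L4 the members that differed were mostly low. There 2 members were higher (11.5% of all genes tested) and 3 were lower (12.3% of all genes tested). The L4 libraries of Tsp42Ef, at 10.9 and 10.2 RPKM, lay below all other lamina libraries (-1.45 ± 0.31, adjusted p = 0.00450), a call that held without each single library. Tsp66E was lower by 0.57 on the log2 scale (-0.57 ± 0.17, adjusted p = 0.0297), and the call ended without L4 replicate 1 (0.0996), L4 replicate 2 (0.129), L1 replicate 1 (0.0594), L2 replicate 2 (0.0539) or L5 replicate 2 (0.0527). Tsp42El was lower by 1.12 on the log2 scale (-1.12 ± 0.34, adjusted p = 0.0329), which ended without L4 replicate 2 (0.269), L1 replicate 1 (0.0524), L1 replicate 2 (0.0560) or L5 replicate 1 (0.0522).

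Tsp74F, at 2.83 and 2.57 RPKM in L4 against 0.523 to 2.35 in the other lamina libraries, was higher by 0.79 ± 0.20 (adjusted p = 0.0110; 0.0773 without L4 replicate 1). Tsp42Ep (FBgn0033137) stood at 3.49 and 7.12 RPKM in L4, 3.56 and 3.52 in L5, 2.22, 2.38, 2.63 and 5.62 in L3, 1.38 and 1.75 in L1, and 1.51 and 1.84 in L2. Its L4 libraries overlapped those of L3 and L5 (0.85 ± 0.26, adjusted p = 0.0308), and the call ended without L4 replicate 2 (0.334), L1 replicate 1 (0.0581) or L2 replicate 1 (0.0533).

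Between L1 and the other 4 lamina types 7 members differed. In L1, 2 members were higher (9.53% of all genes tested) and 5 were lower (11.6% of all genes tested). Tsp42El, at 5.45 and 5.90 RPKM, was lower in L1 by 1.76 on the log2 scale (-1.76 ± 0.34, adjusted p = 0.00258), the L1 call that held without each single library. Tsp42Ee was higher in L1 by 1.10 ± 0.29 (adjusted p = 0.0160; 0.0650 without L1 replicate 1 and 0.223 without L1 replicate 2). Tsp86D, at 38.7 and 42.4 RPKM in L1 against 11.8 to 35.0 in the other lamina libraries, was higher by 0.84 ± 0.26 (adjusted p = 0.0352), and the call ended without L1 replicate 1 (0.180), L1 replicate 2 (0.244), L2 replicate 1 (0.0606), L5 replicate 2 (0.0569), R7 replicate 1 (0.0507) or R7 replicate 2 (0.0506).

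The other members lower in L1 were Tsp42Ea (-1.17, adjusted p = 0.00396; 0.0697 without L1 replicate 1), lbm (-0.75, adjusted p = 0.0319), Tsp74F (-0.64, adjusted p = 0.0343) and Tsp97E (-0.49, adjusted p = 0.0221). The lbm call ended without L1 replicate 1 (0.238), L1 replicate 2 (0.173), L2 replicate 1 (0.0570) or L5 replicate 1 (0.0559). The Tsp97E call ended without L1 replicate 1 (0.115) or L1 replicate 2 (0.236). The Tsp74F call ended without either L1 library (0.122 and 0.318), either R7 library (0.0528 and 0.0529), L2 replicate 2 (0.0645) or L5 replicate 1 (0.0595).

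In L2, 0 members were higher by limma (1 at an unadjusted p under 0.05; 12% of all genes tested were called) and 3 were lower (9.59% of all genes tested). The level of lbm in L2, 2.24 and 1.78 RPKM, was the lowest of the lamina (-1.43 ± 0.23, adjusted p = 0.000631), and this call held without each single library. Tsp97E was lower by 0.46 on the log2 scale (-0.46, adjusted p = 0.0302), which ended without L2 replicate 1 (0.104), L2 replicate 2 (0.308), L1 replicate 1 (0.0622) or L5 replicate 1 (0.0546). Tsp68C, at 0.134 and 0.156 RPKM, was lower by 0.85 on the log2 scale (-0.85, adjusted p = 0.0490). Its call ended without either L1, L2, R7 or R8 library, L3 replicate 3 or 4, L4 replicate 1 or L5 replicate 1 (adjusted p = 0.0508 to 0.289).

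A run of 18 members (Tsp42Ea to Tsp42Er, with lbm among them) lies side by side on chromosome arm 2R, with some other genes between them. Of these 18, 13 were tested, 7 had a type mean of at least 10 RPKM and 4 of at least 50 RPKM. Of the 17 members elsewhere, 14 were tested, 9 reached 10 RPKM and 4 reached 50 RPKM. Neighbours within the run had unlike levels: Tsp42Ed, next to Tsp42Ee, stood at 0 to 1.80 RPKM over the 16 libraries, where Tsp42Ee reached 1202. Tsp42Ea and Tsp42Ec, at the start of the run, were higher in photoreceptors, whereas Tsp42Ee and Tsp42Ef beyond them were lower, Tsp42Ef with overlapping libraries. Tsp42Ek and Tsp42El, which are adjacent, were lower and higher respectively.

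**Figure D5:**
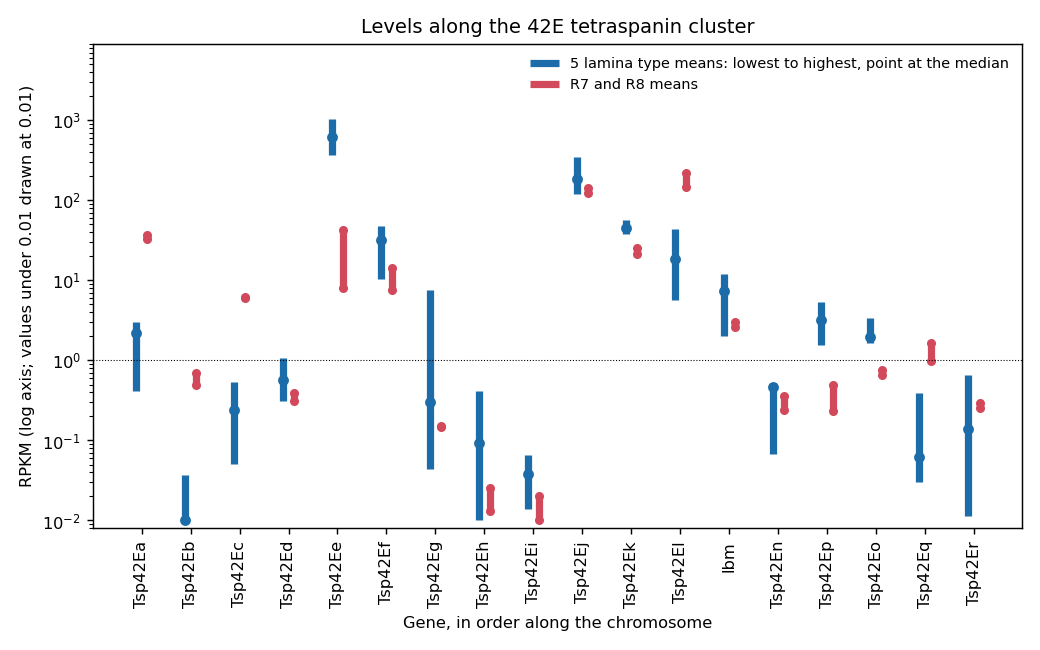
Levels along the run of 18 tetraspanin genes at 42E, in their order on the chromosome, RPKM on a log axis with values under 0.01 drawn at 0.01 and a dotted line at 1 RPKM. Blue bars run from the lowest to the highest of the 5 lamina type means with a point at their median, red points are the R7 and R8 means, and Tsp42Ee, Tsp42Ej, Tsp42Ek and Tsp42El rise above 50 RPKM.

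The 8 members that were not tested stayed near or below 1 RPKM. They were Tsp33B, Tsp42A, Tsp42Eb, Tsp42Eh, Tsp42Ei, Tsp42En, Tsp42Er and Tsp66A. Tsp42Eb stood at 0.638 and 0.339 RPKM in R7 and 0.681 and 0.693 in R8, and at 0 to 0.0895 in the lamina libraries, with no overlap and no test. Tsp33B reached 1.15 RPKM in L3 replicate 4 and Tsp42Er 1.06 RPKM in L3 replicate 3. Tsp66A was listed at 0 in all 16 libraries, and all of its exonic bases overlap CG42660 or CG42661 on the same strand in the current annotation.

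Genes known to work with tetraspanins were read beside them. Over all genes tested 31.7% were called higher in photoreceptors and 30.2% lower, and the counts of each list stand beside those shares without a test. The filter bears on these genes as well. The genes mesh and if reached 1 RPKM in photoreceptor libraries alone, and Rab27, Itgbn, Meltrin and Dl in lamina libraries alone. Their calls between the classes, and the counts that hold them, are therefore not independent of the filter. Of 8 tested genes of Adam proteases and Notch signalling, 4 were higher in photoreceptors and 2 lower, with a median log2 difference of 0.12. The protease gene kuz was higher (1.59, adjusted p = 0.000161), at 27.1 to 41.7 RPKM in photoreceptors against 3.19 to 33.1 in the lamina libraries. Its libraries overlapped, as the lowest photoreceptor library stood below the highest of L5. The γ-secretase subunit genes pen-2 (1.33, adjusted p = 0.00028) and nct (0.69, adjusted p = 0.000917) were higher as well, and the receptor gene N was lower (-3.19, adjusted p = 1.05e-06), at 0.914 to 4.20 RPKM against 8.07 to 63.6.

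Of 5 tested integrin genes 1 was higher and 3 were lower, with a median of -0.43. The α subunit gene mew was lower (-0.70, adjusted p = 0.0005) and if was higher (0.68, adjusted p = 0.0029), at 2.24 and 1.76 RPKM in R7 but 0.494 and 0.498 in R8, within the 0.0434 to 0.941 of the lamina libraries. The R7 libraries alone stood above the lamina. In turn the β subunit genes Itgbn (-0.60, adjusted p = 0.000679) and mys (-0.43, adjusted p = 0.0331) were lower. Of 11 genes of vesicle release and late endosomes 5 were higher and 1 was lower, with a median of 0.15. These included the lysosomal genes spin (1.35, adjusted p = 7.89e-07) and Lamp1 (0.61, adjusted p = 0.0162), the endosomal gene ALiX (0.94, adjusted p = 0.000251) and, downward, the vesicle release gene Rab27 (-0.96, adjusted p = 0.00232). Of the partner genes named so far, pen-2, mew, mys, Lamp1 and ALiX also overlapped between photoreceptor and lamina libraries. The R7 mean of Lamp1, 163.8 RPKM, lay below its means in L1 (206.7), L2 (183.1) and L3 (166.7). It lay above those in L4 (87.35) and L5 (116.7), and the R8 mean, 296 RPKM, lay above all of them. For mew the means in R7 (1.37 RPKM) and R8 (1.53 RPKM) lay above L1 (0.939) and on either side of L3 (1.4). Both lay below its means in L2 (3.56), L4 (12.05) and L5 (2.69).

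The genes of rhodopsin synthesis and turnover were mostly higher in photoreceptors, 6 of 7 tested, with 1 lower and a median of 5.11. They included the arrestin gene Arr2 (6.8, adjusted p = 2.67e-09), Culd (5.98, adjusted p = 3.23e-11), the rhodopsin chaperone gene ninaA (5.77, adjusted p = 3.31e-11) and the rhodopsin phosphatase gene rdgC (5.11, adjusted p = 6.74e-11). Tsp42Ej, which lowers rhodopsin in the retina, differed by -0.53 with overlapping libraries, as given above. Of the partners of Tsp2A, mesh was higher in photoreceptors by 2.43 (adjusted p = 4.4e-10), at 7.85 and 8.77 RPKM in R7 and 2.43 and 2.35 in R8 against at most 0.345 in the lamina libraries. Ssk was called higher by 1.04 (adjusted p = 0.00015), but its classes overlapped. It stood at 16.1 and 13.7 RPKM in R7, 5.39 and 6.63 in R8, 5.27 and 4.95 in L1, 15.2 and 17 in L2, 7.39, 11.3, 5.11 and 5.06 in L3, and 2.96 and 3.58 in L5, and was listed at 0 in both L4 libraries. The L2 libraries thus lay above those of R8.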

How the data were processed

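Total RNA of sorted cells was sequenced in 16 libraries. Per the submitters' processing notes, TopHat and build BDGP5 were used for alignment, and the authors deposited RPKM values, 1 column per library, without replicates pooled. How reads were counted, with which annotation and strand setting, is not given in the sources used here. The members and gene lists were chosen with earlier results of these data known.

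RPKM values were used without further scaling. Genes with at least 1 RPKM in at least 2 libraries were fitted with limma 3.58.1 in R 4.3.3 on log2(RPKM + 1), with a mean for each of 7 types and a variance trend, and p-values were adjusted by the Benjamini-Hochberg method over all 9346 genes tested. Values in every library are given for members with a type mean of at least 50 RPKM, for the 3 called members with the greatest difference each way in a comparison, and for lbm, Tsp42Ej, Tsp3A, Tsp26A and Tsp86D. Others are given by range. At most 4 called genes of a partner list are named. The plan allowed for counts, and the values proved to be RPKM.

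Depth was recovered from low values, of which 73.1 to 78.2% lay within 0.05 of whole reads, so reads were not tested. Gene order and exon overlap come from the current Ensembl annotation (BDGP6), which holds all 35 members. No coordinates are given because the builds differ. The test was checked on simulated data. Figures were drawn with Python 3.11.15 and matplotlib 3.10.9. Alternatives were quantile normalization, no filter, a pseudocount of 0.1, a 2-fold threshold, a replicate block, pooled classes, fits on the lamina or photoreceptor libraries alone, and leaving out each library or L3 replicates 3 and 4 together.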

Additional observations from a re-analysis of the deposited data

Results flagged for a closer look

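In 2 of 28 cases examined in L3, the type with 4 libraries, a library stood apart from the other 3. The rate by chance alone is about 1 in 20. The cases were the 27 tested members and the summed level of the family. Tsp42Ea stood at 4.74 RPKM in L3 replicate 2 and at 2.34 to 2.64 RPKM in the other 3 L3 libraries. In L3 replicate 2 the photoreceptor markers summed to 143 RPKM, against 53.9 to 138 in the other 3. The glial markers summed there to 33.1 RPKM, against 9.0 to 16.9 in the other 3, and the fat body markers to 15.2 RPKM, against 1.14 to 5.64. The part of photoreceptor, glial or fat body RNA in the Tsp42Ea value was not tested. Tsp42Ep stood at 5.62 RPKM in L3 replicate 4 and at 2.22 to 2.63 RPKM in the other 3.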

How the results depend on the processing

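No called difference of a member turned direction under any alternative run. Without a call on either side, 18 values of 9 small differences had the other sign. Between photoreceptors and lamina neurons Tsp5D (0.03) stood at -0.017 with a pseudocount of 0.1, -0.036 with the replicate block and without L3 replicates 3 and 4 together, -0.045 with pooled classes and -0.21 to 0.27 with a library left out. Between R7 and R8 quantile normalization turned lbm (-0.14) to 0.091 and Tsp26A (-0.27) to 0.00039. With a library left out, differences ran from -0.025 to 0.20 for Tsp42Ed, -0.35 to 0.13 for Tsp42Ea, -0.21 to 0.26 for Tsp42Ec, -0.13 to 0.15 for Tsp42Eg, -0.49 to 0.051 for Tsp42Ej and -0.032 to 0.23 for Tsp97E. With a 2-fold threshold in limma 10 members were called between photoreceptors and lamina neurons (14.2% of all genes tested). Between R7 and R8 0 were called (2.53% of all genes tested). In L3 1 was called and in L1, L2, L4 and L5 0 each, against 2.73 to 3.48% of all genes tested. At an unadjusted p under 0.05 that threshold left 1 member each between R7 and R8 and in L1, L2 and L5, and 0 in L4. Without a filter, with 34 members tested, L1 had 4 calls (11.8% of all genes tested) and L4 had 3 (13.8%). With the lamina libraries alone and 23 members tested, L1 had 3 (16.3% of all genes tested), L2 had 1 (15.1%) and L4 had 2 (17.8%). With the photoreceptor libraries alone R7 and R8 differed in 11 members, against 36.7% of all genes tested.

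Leaving out L3 replicates 3 and 4 together gave more calls: 8 between R7 and R8, 16 in L1, 6 in L2, 12 in L3, 11 in L4 and 10 in L5. The share of all genes called rose as well, to 15.6% between R7 and R8 and to 28.3 to 37% for the lamina types. Whether the replicate numbers pair the libraries is not stated, and the main fit takes no account of pairing. Over 21 pairs of types the correlation of same-numbered deviations ran from -0.249 to 0.32. It was over 0.1 in 7 pairs and under 0 in 9, and was highest between R7 and R8, so pairing in some types cannot be told. With the replicate block, in which L3 replicates 3 and 4 have no partner, the counts were 7 between R7 and R8, 16 in L1, 6 in L2, 12 in L3, 11 in L4 and 10 in L5, with 16.5% of all genes called between R7 and R8 and 29.8 to 38.9% for the lamina types. Tsp39D was then called between photoreceptors and lamina neurons (adjusted p = 0.0102). The cause was not tested.

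Leaving out each library in turn gave 19 to 23 calls between photoreceptors and lamina neurons, 1 to 6 between R7 and R8, 1 to 12 in L1, 1 to 4 in L2, 6 to 10 in L3, 2 to 9 in L4, 1 to 8 in L5, 9 to 18 over the lamina types and 22 to 27 over all types. Types with 2 libraries are then represented by 1, assumed to vary like the others. Of the values of single members under all alternatives, 1613 kept their direction and side of the threshold. A call was lost in 197 values and gained in 30. For each lamina type against the other 4, only members called in the main fit were followed, so those values could lose a call but not gain one.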
